A study of Saccharomyces cerevisiae with 18 samples.

Results

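The 33 genes for subunits of the yeast proteasome and RPN4, the gene of their transcriptional activator, were followed across 6 strains of Saccharomyces cerevisiae that differ in the ubiquitin-conjugating enzyme Rad6 or its partner Bre1. The members were chosen by systematic name from their known place in the complex. They are 34 of the 5746 genes in the count table, and all 34 passed the filter on low counts, which left 5630 genes to test. The smallest count of any member in any library was 295 reads.

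The proteasome is the protease that takes up ubiquitin-tagged proteins and cuts them into peptides. Its 20S core is a barrel of alpha and beta rings with the cutting sites inside the beta rings. The 19S regulatory particle caps the barrel and consists of a base, with the 6 ATPases Rpt1 to Rpt6 that unfold substrates, and a lid, which removes the ubiquitin. Rpn4 activates the genes of nearly all subunits through a short promoter element, and the Rpn4 protein is itself short-lived and degraded by the proteasome. The ubiquitin ligase Ubr2 with its partner Mub1, using Rad6 as the conjugating enzyme, is a known route to that degradation. Rad6 also works with the ligase Bre1 on histone H2B and with the ligase Ubr1 on proteins with destabilizing ends.

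Each strain was grown as 3 independent cultures, per the series' design text, giving 18 libraries of poly(A)-selected RNA. All strains carry trp1Δ and mutant alleles of URA3, LEU2 and HIS3, are labelled Mat a, and were grown at 30 °C in synthetic medium without tryptophan, which selects for a centromeric TRP1 plasmid. In the rad6Δ strain the chromosomal RAD6 is replaced by KanMX and the plasmid is the empty vector pRS314. In the bre1Δ strain BRE1 is replaced by KanMX and the plasmid is again pRS314, and RAD6 is the untagged chromosomal gene. In the strains P43L, P47T and E49K the chromosomal gene is likewise deleted (rad6Δ::KanMX), and the plasmid holds the named rad6 point mutant, tagged with 3V5. These substitutions lie in a beta-turn on the backside of Rad6. The strain called WT is the rad6Δ::KanMX deletion with plasmid-borne RAD6-3V5, so its Rad6 is also tagged and plasmid-borne. In bre1Δ against WT, the tag and gene copy of Rad6 thus differ too, beside the loss of BRE1. The protocols give 2 culture densities at harvest (OD600 of 0.7, and of 0.8 to 1.0), and which applied was not settled here.

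Library totals ran from 5065845 to 11396251 counts, and counting noise alone did not account for the differences in any pair of replicates (chi-square per degree of freedom 6.36 to 40.7). P43L replicate 2 stood apart from the other two P43L libraries, at 38.7 and 37.4, where those differed by 6.58. What set it apart was not tested, and results of P43L that change without it are given both ways. RAD6 had 3.75 to 4.77 CPM (read counts scaled to library size with the TMM factor applied) in rad6Δ, against 143 to 157 CPM in WT. BRE1 had 1.25 to 2.12 CPM in bre1Δ, against 136 to 147 CPM in WT. RAD6 was lower in bre1Δ than in WT, at 93.4 to 106 CPM. In the point mutants its mean was 175, 162 and 126.5 CPM in E49K, P47T and P43L, against 149 CPM in WT. The log2 fold changes were 0.23 ± 0.09 (SE), 0.12 ± 0.09 and −0.24 ± 0.09. Among them only E49K was called (edgeR quasi-likelihood test, adjusted p = 0.0499, against 0.348 in P47T and 0.077 in P43L). Without P43L replicate 2, 1 of RAD6 and BRE1 was called lower in P43L, and with it 0. Whether RAD6 level bears on the members was not tested. Transcripts specific to mating type went against the label in all 18 libraries: between 5684 and 17769 reads fell on the alpha-factor gene MF(ALPHA)1, and between 1 and 38 on MFA1 plus MFA2, the a-factor genes. The members took 0.704% to 1.01% of all counts. The non-coding RNA rows SCR1 and LSR1 together took 7.84% to 11.5%, with strain means from 8.59% (P47T) to 10.5% (rad6Δ) and 9.87% in WT. In cultures measured in bulk, fewer cells of a type and less RNA per cell cannot be told apart.

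The Rpn4 element, written GGTGGCAAA, was searched for on both strands from 250 bases before to 50 bases after each gene's annotated start, which in the R64 genome of RefSeq is the start codon. It was present in 27 of 33 subunit windows (81.8%), against 72 of 6001 windows of nuclear protein-coding genes (1.2%). The looser form NGTGGCNAN, which includes the full form, was present in all 33 subunit windows and in 534 of 6001 windows (8.9%). The full element was in 6 of 7 alpha ring genes, 6 of 7 beta ring genes, 8 of 10 base genes and 7 of 9 lid genes. It lay 75 to 174 bases before the start, with a median of 111. In 19 genes it read in the direction of the gene, and in 8 against it. The window of RPN4 itself held neither form. The 49-base stretches below are the elements of genes on which the results turn, each read along its gene's strand, with the element in capitals. RPT1 is shown because its element reads against the gene.
RPT5 (chrXV:544845-544893, gene on the plus strand): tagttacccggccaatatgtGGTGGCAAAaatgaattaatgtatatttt
RPT1 (chrXI:174038-174086, plus strand): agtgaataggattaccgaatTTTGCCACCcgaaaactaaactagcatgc
PRE8 (chrXIII:86831-86879, minus strand): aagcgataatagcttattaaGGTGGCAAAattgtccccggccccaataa
PRE9 (chrVII:761213-761261, plus strand): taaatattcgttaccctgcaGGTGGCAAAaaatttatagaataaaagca
RPN5 (chrIV:190766-190814, plus strand): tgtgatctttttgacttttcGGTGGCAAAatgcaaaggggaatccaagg
RPN9 (chrIV:1322076-1322124, plus strand): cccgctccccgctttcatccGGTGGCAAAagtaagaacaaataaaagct
RPN11 (chrVI:153249-153297, plus strand): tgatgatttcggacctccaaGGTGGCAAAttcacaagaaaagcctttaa

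The other 6 subunit genes (PRE5, PUP1, RPN10, RPN13, RPN8 and SEM1) held only the loose form, and 3 of them are shown for contrast, with the loose match in capitals.
RPN8 (chrXV:817075-817123, minus strand): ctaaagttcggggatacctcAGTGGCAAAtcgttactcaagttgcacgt
RPN13 (chrXII:965646-965694, minus strand): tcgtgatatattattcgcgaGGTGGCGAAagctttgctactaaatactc
SEM1 (chrIV:1201997-1202045, plus strand): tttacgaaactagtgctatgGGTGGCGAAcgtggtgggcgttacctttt

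**Figure D1:**
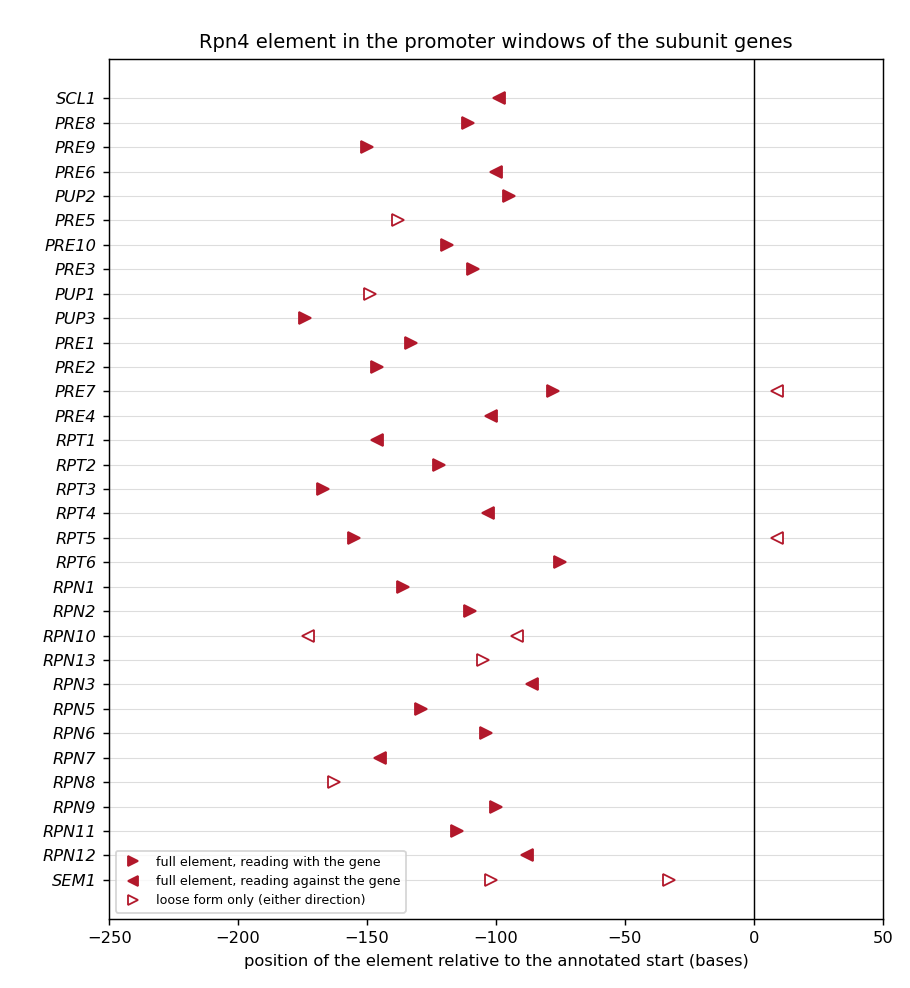
Position of the Rpn4 element in the promoter windows of the 33 subunit genes, in bases from the annotated start (x axis), 1 gene per row grouped as alpha ring, beta ring, base and lid. Filled triangles are the full element and point in its reading direction, and open triangles are matches to the loose form only; the full elements lie between 75 and 174 bases before the start.

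The subunit genes did not share 1 level. Per kilobase of coding length, their mean level in WT ran between 141 CPM for RPN6, a lid subunit, and 497 CPM for PUP3, a beta ring subunit, with a median of 235 CPM and a ratio of 3.52 between the ends. RPN4 was the lowest of the 34 members at 128 ± 9.3 CPM per kilobase (SD, n = 3), a level that its SD does not separate from RPN6 (141 ± 7.8). RPN5, RPN8 and SEM1 of the lid stood near the top with 425, 424 and 399 CPM per kilobase in WT. In the mutants the median level of the 33 subunits was 264 CPM per kilobase (rad6Δ), 219 (bre1Δ), 246 (P43L), 223 (P47T) and 224 (E49K), against 235 in WT.

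**Figure D2:**
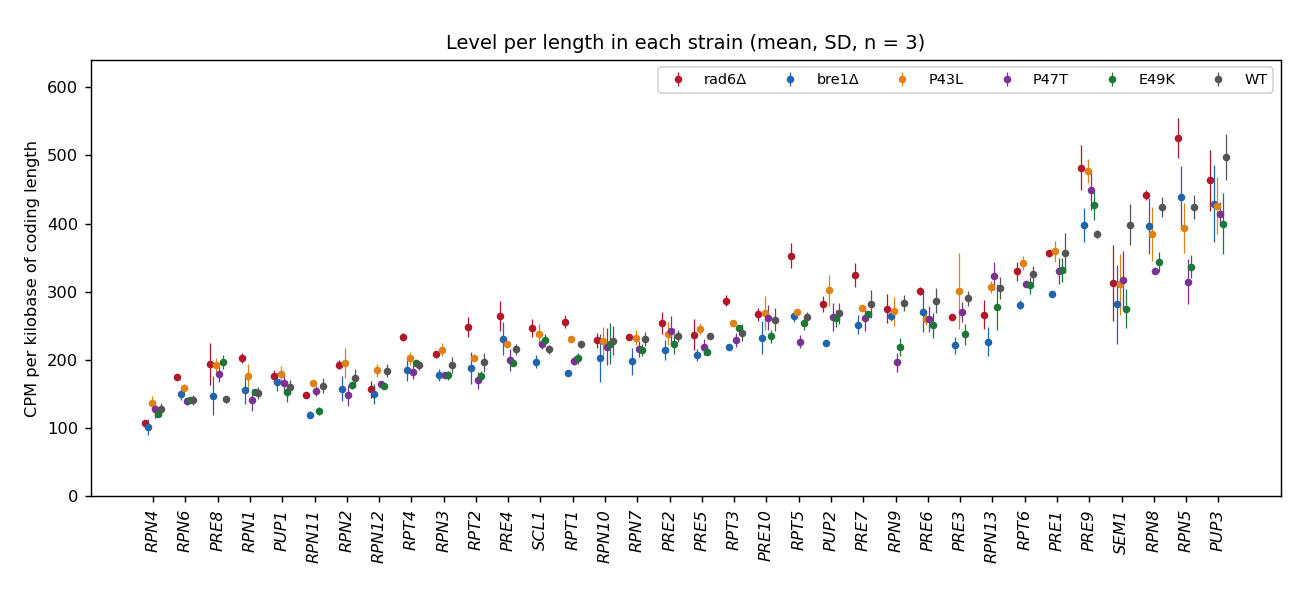
Level of each member in each strain as CPM per kilobase of coding length (y axis, linear), with members ordered by their WT mean along the x axis and colours for strains. Points are means and bars are SD over 3 libraries; RPN4 stands at the low end with 128 CPM per kilobase in WT and PUP3 at the high end with 497.

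The summed level of the 33 subunit genes was 9362, 9372 and 9486 CPM in rad6Δ, against 8483, 8441 and 8502 CPM in WT. It was 7848, 7873 and 7711 CPM in bre1Δ. All 3 rad6Δ libraries stood above, and all 3 bre1Δ libraries below, every WT library. The sum was 8721, 8971 and 8618 CPM in P43L, 7761, 7618 and 7826 CPM in P47T, and 7779, 7878 and 7788 CPM in E49K. The P43L libraries lay above the WT libraries, and those of P47T and E49K below them. For P43L this depended on the TMM factor. As a share of all counts, the 34 members took 0.902%, 0.917% and 0.903% in P43L, which overlaps 0.926%, 0.877% and 0.913% in WT. Among the 6 strain means of each subunit gene, rad6Δ was highest in 17 of 33 and lowest in none, and bre1Δ was highest in none and lowest in 16. Over all genes tested, rad6Δ was highest in 24.5% and bre1Δ lowest in 16.3%.

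RPN4 (YDL020C, chrIV:415113-416708, minus strand) had 168, 172 and 175 CPM in rad6Δ and 183, 159 and 146 CPM in bre1Δ, against 188, 218 and 204 CPM in WT. Both deletion strains lay below all WT libraries. It had 203, 236 and 218 CPM in P43L, 196, 190 and 227 CPM in P47T, and 192, 186 and 198 CPM in E49K, which overlap the WT range. The log2 fold change against WT was −0.25 ± 0.09 (SE) in rad6Δ (edgeR quasi-likelihood test, Benjamini-Hochberg adjusted p = 0.0214) and −0.32 ± 0.09 in bre1Δ (adjusted p = 0.00503). RPN4 thus fell in both, by 15.7% and 20.0%. In the point mutants it was 0.11 ± 0.09 (P43L), 0.00 ± 0.09 (P47T) and −0.08 ± 0.09 (E49K), with edgeR adjusted p of 0.421, 0.979 and 0.495, which does not show that the levels were alike. Against rad6Δ, RPN4 rose in P43L (0.35 ± 0.09, edgeR adjusted p = 0.00181) and in P47T (0.25 ± 0.09, adjusted p = 0.0186), and E49K had 0.16 ± 0.09 (adjusted p = 0.135). The call in rad6Δ against WT was lost without rad6Δ replicate 1 (edgeR adjusted p = 0.0636) or WT replicate 2 (log2 fold change −0.19, adjusted p = 0.110; 0.0116 to 0.110 over the 6 libraries left out in turn). The call in P47T against rad6Δ was lost without P47T replicate 3 (0.17, edgeR adjusted p = 0.120) or rad6Δ replicate 1 (0.24, 0.0550), and with library totals alone (0.16, 0.194).

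**Figure D3:**
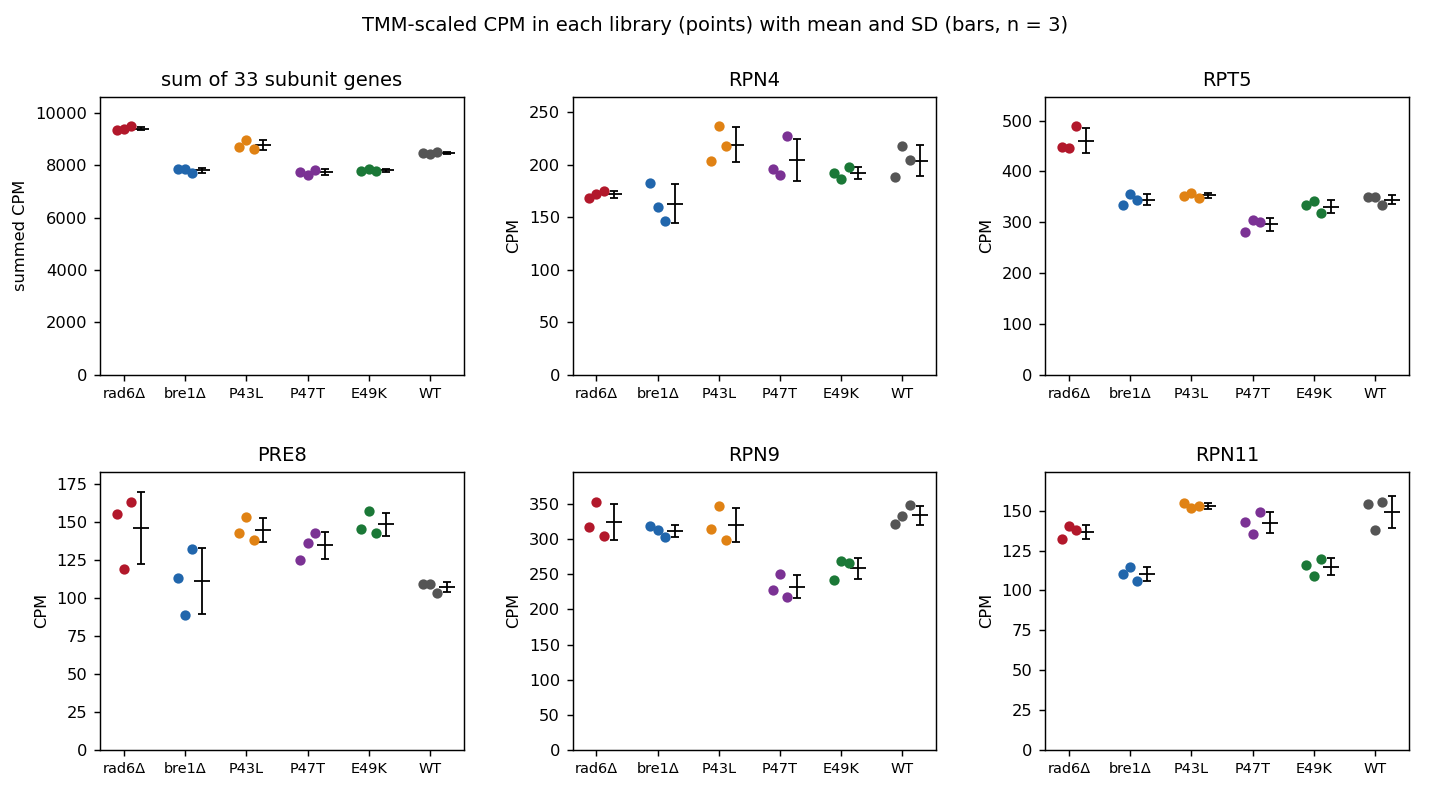
CPM in each library (y axis, linear from 0) for the sum of the 33 subunit genes, RPN4 and 4 subunit genes, with strains along the x axis. Points are libraries, and bars are mean and SD over 3; the rad6Δ sums of 9362 to 9486 CPM lie above all other strains, while RPN4 is below WT in rad6Δ.

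In rad6Δ against WT, 13 of 34 members rose and 2 fell, where 24.8% of all genes tested rose and 24.8% fell. A fit of these 2 strains alone also gave 13 higher but 5 lower. The median log2 fold change was 0.09 over the members and 0.00 over all genes. The base of the regulatory particle had 6 of 10 genes higher and none lower, the alpha ring 3 of 7 higher, the beta ring 2 of 7 higher, and the lid 2 of 9 higher and 1 lower. RPN4, the gene of their activator, was 1 of the 2 that fell.

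RPT5 (YOR117W), a base ATPase, had 447, 446 and 488 CPM in rad6Δ, against 349, 349 and 334 CPM in WT. It rose by 33.9%, with a log2 fold change of 0.42 ± 0.07 (edgeR adjusted p = 2.7e-05). The groups did not overlap, and no other strain's library of RPT5 passed 358 CPM. RPN6 (YDL097C), a lid subunit known to hold core and regulatory particle together, had 231, 225 and 230 CPM in rad6Δ, against 191, 172 and 190 CPM in WT (0.31 ± 0.07, edgeR adjusted p = 0.00053). PRE9 (YGR135W), the alpha subunit that yeast can live without, had 391, 346 and 387 CPM in rad6Δ, against 298, 304 and 295 CPM in WT (0.33 ± 0.08, edgeR adjusted p = 0.00114). All rad6Δ libraries lay above all WT libraries for both genes. The highest fold change was that of PRE8 (YML092C), an alpha subunit, at 0.44 ± 0.12 (edgeR adjusted p = 0.00337). RPN1, the large base scaffold that binds ubiquitin-like domains, rose (0.42 ± 0.10), as did the ATPase genes RPT2 (0.34 ± 0.08), RPT3 (0.26 ± 0.06), RPT4 (0.28 ± 0.07) and RPT1 (0.20 ± 0.06). Of the 6 ATPase genes only RPT6 was not called, with 402 CPM in rad6Δ and 397 CPM in WT. The remaining calls upward were PRE4 and PRE7 of the beta ring, SCL1 of the alpha ring and RPN5 of the lid, with 14.4% to 23.8% more.

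RPN12 (YFR052W), a lid subunit, fell. It had 129, 140 and 120 CPM in rad6Δ, against 160, 145 and 150 CPM in WT (−0.23 ± 0.07, edgeR adjusted p = 0.0138). The groups did not overlap, but the call was lost without rad6Δ replicate 3 (−0.18, edgeR adjusted p = 0.0761), without WT replicate 1 (−0.20, 0.0574) and with a correction for gene length (−0.15, 0.0670). SEM1, the smallest subunit, had the lowest fold change at −0.35 ± 0.15 and was not called (edgeR adjusted p = 0.0536).

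Longer genes tended to be higher in rad6Δ. The log2 fold change had a Spearman correlation with coding length of 0.179 across 5532 genes and of 0.391 across the 34 members. These genes share libraries and are not independent replicates. With a correction for length, 16 members were higher and 2 lower; the part of length in the single values was not tested. All 13 subunit genes that rose were among the 27 with the full element (48.1% of them), and none was among the 6 with the loose form alone. Coding lengths ran from 270 (SEM1) to 1017 bases (RPN8) in those 6, and from 597 (PRE1) to 2982 bases (RPN1) in the 27. The 2 sets thus differ in length too, and the part of length in this split was not tested. The 44 other tested genes with the full element had 10 higher (22.7%) and 7 lower (15.9%), with a median log2 fold change of −0.01.

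**Figure D4:**
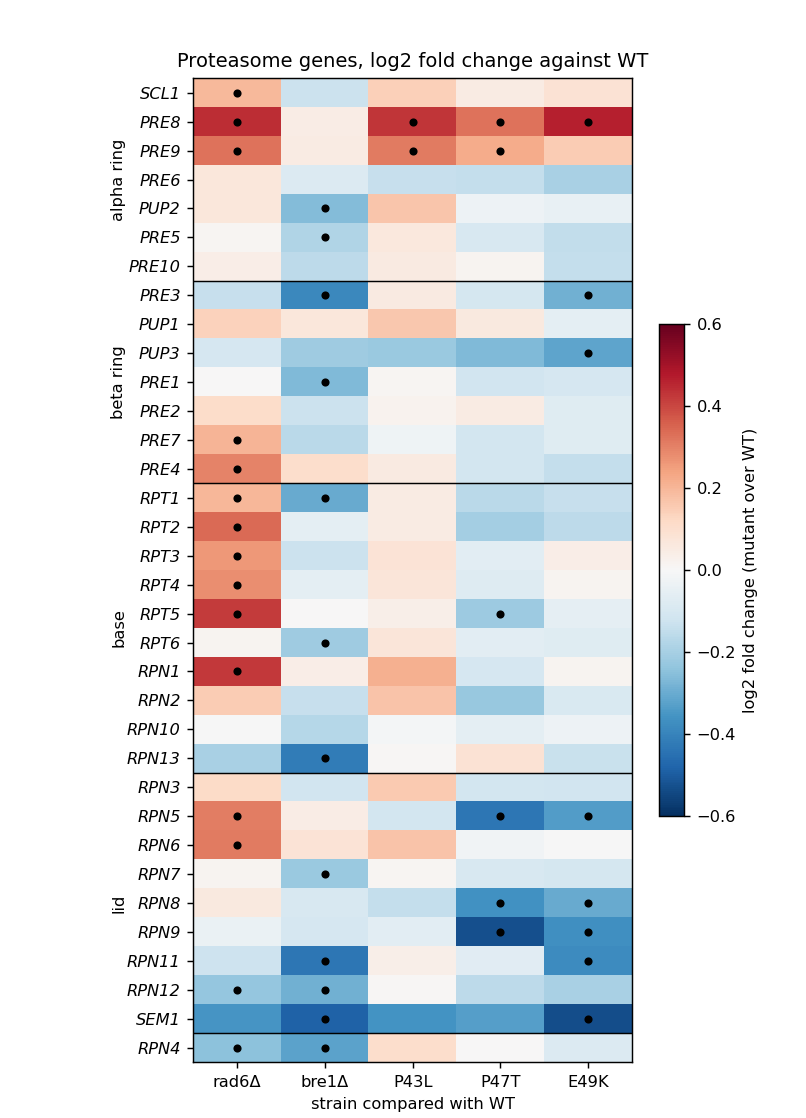
Log2 fold change of each member (rows, grouped by place in the complex) in each mutant over WT (columns), on a colour scale with 0 in white, red for higher in the mutant and blue for lower. Black dots mark edgeR adjusted p below 0.05; the base rows are called higher in 6 of 10 cases in rad6Δ, and the lid rows lower in 5 of 9 in E49K.

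In bre1Δ against WT, no member rose and 12 fell, where 22.3% of all genes rose and 22.1% fell. The median log2 fold change was −0.13 over the members and 0.00 over all genes. Besides RPN4, the members that fell were 2 of 7 in the alpha ring, 2 of 7 in the beta ring, 3 of 10 in the base and 4 of 9 in the lid. RPN11 (YFR004W), the deubiquitinase of the lid, had 110, 115 and 106 CPM in bre1Δ, against 154, 138 and 156 CPM in WT (−0.44 ± 0.07, edgeR adjusted p = 3.5e-05). RPN13 (YLR421C), a ubiquitin receptor of the base, had 107, 116 and 96.8 CPM in bre1Δ, against 140, 139 and 152 CPM in WT (−0.42 ± 0.09, edgeR adjusted p = 0.000732). RPT1 (YKL145W), an ATPase, had 256, 259 and 246 CPM in bre1Δ, against 304, 319 and 316 CPM in WT (−0.30 ± 0.06, edgeR adjusted p = 0.000793). For all 3 genes every bre1Δ library lay below every WT library.

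The catalytic beta subunit PRE3 fell by 23.6% in bre1Δ, and SEM1, which had the lowest value, by 28.6% (−0.49 ± 0.15, edgeR adjusted p = 0.0136). The other calls were RPN12, PRE1, PUP2, RPT6, RPN7 and PRE5, with decreases between 11.9% and 18.2%. The highest value was that of PRE4 at 0.10 ± 0.08, which was not called (edgeR adjusted p = 0.299). Of the 33 subunit genes, 17 were above 0 in rad6Δ against WT and below 0 in bre1Δ against WT. The 2 comparisons share their WT libraries, and this count was not made over all genes. Scaling mattered here. With library totals alone, all genes moved by a median of −0.11 and split into 734 higher and 1699 lower, against 1257 and 1244 with TMM. The members then had none higher and 21 lower, with a median 0.14 below that of all genes, as with TMM. Among the 44 other genes with the full element 4 rose (9.09%) and 17 fell (38.6%), and among the 27 subunit genes with it 8 fell (29.6%). Of the 6 subunit genes with the loose form alone, 3 fell (50.0%). Against WT, 1 of these 6 fell in P47T (16.7%) and 2 in E49K (33.3%), and none rose. Of the 27 with the full element, 2 rose and 3 fell (11.1%) in P47T, and 1 rose and 5 fell (18.5%) in E49K. Of all genes, 14.2% rose and 13.7% fell in P47T, and 15.2% rose and 16.1% fell in E49K.

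The direct comparison of rad6Δ with bre1Δ used no WT library. All 34 members were above 0, and 19 rose and none fell, where 8.92% of all genes rose and 11.9% fell. The median log2 fold change was 0.24 over the members and 0.01 over all genes. The base had 8 of 10 genes higher, the alpha ring 4 of 7, the beta ring 3 of 7 and the lid 4 of 9. RPT1 had the largest value. It stood at 345, 364 and 370 CPM in rad6Δ, against 256, 259 and 246 CPM in bre1Δ, a rise of 41.7% (0.50 ± 0.06, edgeR adjusted p = 1.1e-05).

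RPT5, RPT2 and RPT3 rose by 33.7%, 31.9% and 31.1%. PRE8 was called with overlapping groups, at 155, 119 and 163 CPM in rad6Δ, against 113, 88.7 and 132 CPM in bre1Δ (0.40 ± 0.12, edgeR adjusted p = 0.0182). RPN12 had the lowest value, at 0.06 ± 0.08 (edgeR adjusted p = 0.633), and RPN4 had 0.08 ± 0.09 (adjusted p = 0.591). Of the 19 genes, 11 were also called higher in rad6Δ against WT, and 6 were called lower in bre1Δ against WT. These comparisons share the rad6Δ or the bre1Δ libraries with the direct one, and the overlap was not counted over all genes. All 19 carried the full element (70.4% of 27), none of the 6 loose-only genes was called, and of the 44 other genes with the element 15 rose (34.1%) and 2 fell (4.55%). The difference in length between the 27 and the 6, given above, holds here too, and its part was not tested.

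The number of members called higher in rad6Δ over bre1Δ was 11 in a fit of these 2 strains alone and 12 without rad6Δ replicate 1. The share of all genes called higher fell as well in the fit of the 2 strains alone, to 5.15% from 8.92%. All 34 members were above 0 with each scaling tried. With library totals alone, 25 members were higher, and all genes split into 770 higher and 356 lower, against 502 and 668 with TMM.

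**Figure D5:**
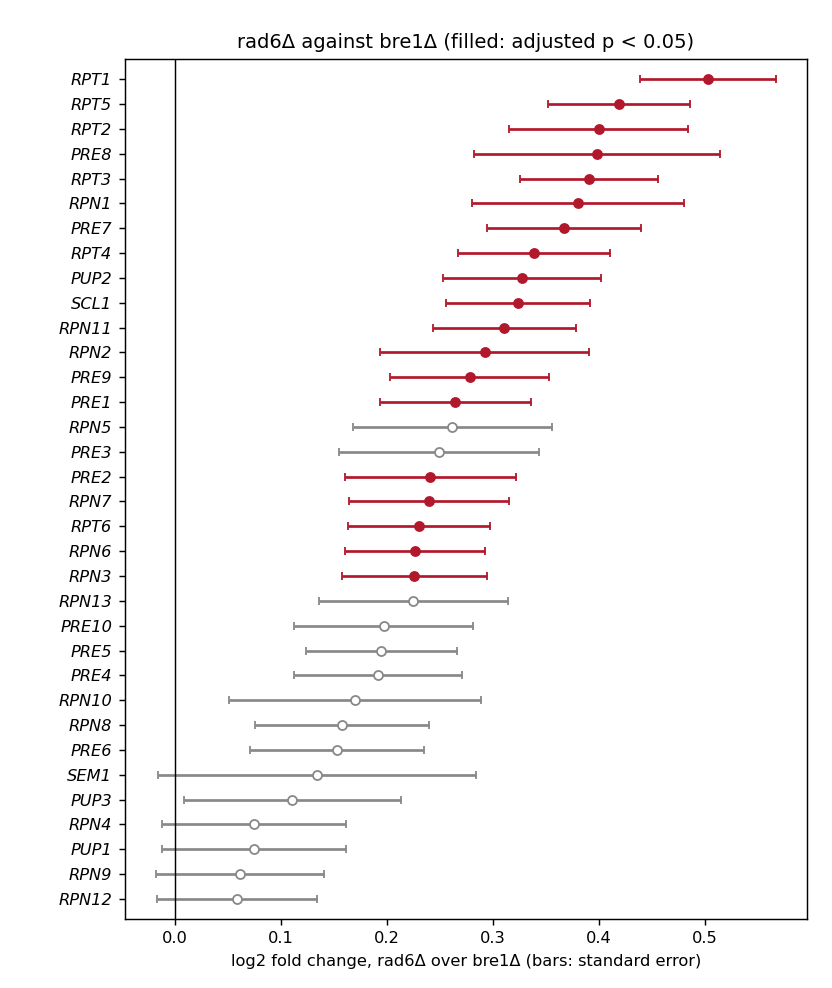
Log2 fold change of rad6Δ over bre1Δ (x axis) for each of the 34 members, ordered by value, with bars for the standard error. Filled red points have edgeR adjusted p below 0.05; every point lies right of 0, from RPT1 at 0.50 to RPN12 at 0.06.

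The 3 beta-turn mutants had 2 (P43L), 6 (P47T) and 8 (E49K) members called against WT. In P43L against WT, 2 members rose and none fell, where 5.95% of all genes rose and 6.18% fell, and the median was 0.05 over the members and −0.02 over all genes. Both are alpha subunits. PRE9 had 381, 376 and 356 CPM in P43L, against 298, 304 and 295 CPM in WT (0.31 ± 0.08, edgeR adjusted p = 0.0125). PRE8 had 142, 153 and 138 CPM in P43L, against 109, 109 and 103 CPM in WT (0.43 ± 0.12, edgeR adjusted p = 0.0214). The groups did not overlap for either gene. Leaving out single libraries gave 0 to 4 members called higher: none without P43L replicate 1 (edgeR adjusted p = 0.0600 for PRE9 and 0.0617 for PRE8), 1 without WT replicate 2 or 3, which lost PRE8, and 4 without P43L replicate 2. Those 4 were PRE9 (0.32), PRE8 (0.40), RPN1 (0.31 ± 0.10, edgeR adjusted p = 0.0348) and RPN6 (0.21 ± 0.07, 0.0431), where 10.7% of all genes rose and 8.93% fell. SEM1 had the lowest value, −0.36 ± 0.15 (edgeR adjusted p = 0.108), and was called lower without P43L replicate 2 (−0.46 ± 0.16, 0.0478). Fold changes in P43L also followed coding length (Spearman 0.299 over 5532 genes, 0.309 over the members), and 6 members were higher with the length correction; the part of length was not tested. With library totals alone, all genes split into 176 higher and 353 lower, against 335 and 348 with TMM. Of the 34 members 19 were then above 0, against 26 with TMM, and their median was 0.004 (−0.062 over all genes).

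In P47T against WT, 2 members rose and 4 fell, where 14.2% of all genes rose and 13.7% fell. The median was −0.10 over the members and −0.01 over all genes. RPN9 (YDR427W), a lid subunit, had 228, 250 and 218 CPM in P47T, against 322, 333 and 349 CPM in WT, a decrease of 30.5% (−0.53 ± 0.08, edgeR adjusted p = 0.000104). RPN5 (YDL147W), also of the lid, had 374, 425 and 463 CPM in P47T, against 542, 577 and 586 CPM in WT (−0.43 ± 0.09, edgeR adjusted p = 0.00205). RPN8 (YOR261C), the lid partner of Rpn11, had 338, 336 and 332 CPM in P47T, against 420, 448 and 425 CPM in WT (−0.36 ± 0.08, edgeR adjusted p = 0.00283). For these 3 genes the groups stood well apart, with no overlap. RPT5 also fell, by 14.1% (−0.22 ± 0.07, edgeR adjusted p = 0.0197).

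The same 2 alpha subunits as in P43L were higher in P47T. PRE9 had 343, 330 and 374 CPM in P47T, against 298, 304 and 295 CPM in WT (0.22 ± 0.08, edgeR adjusted p = 0.0318). PRE8 had 125, 136 and 143 CPM in P47T, against 109, 109 and 103 CPM in WT (0.33 ± 0.12, edgeR adjusted p = 0.0394). Both calls were lost in most fits that left out 1 library. PRE9 was lost without P47T replicate 1 or 3 or any WT library (edgeR adjusted p from 0.0626 to 0.117). PRE8 was lost without P47T replicate 2 or 3 or any WT library (edgeR adjusted p from 0.0779 to 0.113). With library totals alone no member was higher (PRE9 0.11, PRE8 0.21) and 13 were lower, while all genes moved by a median of −0.13 and split into 407 higher and 1297 lower, against 799 and 770 with TMM. The members' median was then 0.09 below that of all genes, as with TMM. With a length correction 9 members were lower, and with a GC correction 7. The GC correction also brought RPN9 to −0.34 (edgeR adjusted p = 0.000741) and ended the call of PRE8 (0.29, 0.0565).

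In E49K against WT, 1 member rose and 7 fell, where 15.2% of all genes rose and 16.1% fell. The median was −0.10 over the members and −0.01 over all genes. The lid had 5 of its 9 genes lower and the beta ring 2 of 7, and no base gene was called. PRE8 had 145, 157 and 143 CPM in E49K, against 109, 109 and 103 CPM in WT, a rise of 38.3% (0.47 ± 0.11, edgeR adjusted p = 0.00466). RPN11 had 116, 109 and 120 CPM in E49K, against 154, 138 and 156 CPM in WT (−0.38 ± 0.07, edgeR adjusted p = 0.000341). RPN9 had 242, 269 and 267 CPM in E49K, against 322, 333 and 349 CPM in WT (−0.37 ± 0.08, edgeR adjusted p = 0.00169). RPN8 had 335, 365 and 350 CPM in E49K, against 420, 448 and 425 CPM in WT (−0.30 ± 0.08, edgeR adjusted p = 0.00869). None of the 4 genes had overlapping groups.

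RPN5 fell by 20.7% in E49K, and SEM1, with the lowest value, by 30.8% (−0.53 ± 0.15, edgeR adjusted p = 0.0111). The catalytic PRE3 fell by 18.1% and PUP3 by 19.6%. RPN5, RPN8 and RPN9 fell in both P47T and E49K, which share the WT libraries. Their coding sequences had the lowest GC content of the 34 members, at 35.9%, 35.3% and 33.7%. With a correction for GC content the fold changes of RPN9 and RPN8 in E49K came to −0.16 (edgeR adjusted p = 0.0643) and −0.17 (0.0765), and neither was called. In E49K the log2 fold change had a Spearman correlation with GC content of 0.216 over 5532 genes and 0.286 over the members. In P47T against WT this correlation was 0.17 and 0.361. The part of GC content was not tested. With library totals alone, all genes split into 538 higher and 952 lower, against 857 and 908 with TMM, and the members' counts were the same as with TMM.

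The point mutants were also compared with the deletion of RAD6. In P47T against rad6Δ, 2 members rose and 15 fell (25.9% and 26.4% of all genes), and in E49K against rad6Δ none rose and 15 fell (18.4% and 18.5%). In P43L against rad6Δ, 3 rose and 9 fell (23.9% and 25.2%). The members' median was −0.13 in P47T, −0.21 in E49K and −0.01 in P43L, against −0.01, −0.02 and −0.02 over all genes, and the 3 comparisons share the rad6Δ libraries. RPN5 had the lowest value in each. It stood at 374, 425 and 463 CPM in P47T, 473, 427 and 452 CPM in E49K and 510, 581 and 488 CPM in P43L, against 659, 722 and 729 CPM in rad6Δ. Every point mutant library lay below every rad6Δ library. The log2 fold change was −0.74 ± 0.09 in P47T, −0.64 ± 0.09 in E49K and −0.42 ± 0.09 in P43L (edgeR adjusted p = 1.39e-06, 1.87e-05 and 0.000882).

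RPT5 was likewise lower than in rad6Δ, at −0.64 ± 0.07 in P47T, −0.48 ± 0.07 in E49K and −0.38 ± 0.07 in P43L. Of the 10 base genes, 7 were lower in P47T, 6 in E49K and 4 in P43L than in rad6Δ. The highest values were those of RPN13 in P47T, which rose (0.28 ± 0.09, edgeR adjusted p = 0.00954), and RPN4 in P43L and E49K, given above. In P43L 3 to 7 members were lower without single libraries: 3 without rad6Δ replicate 2, 4 without P43L replicate 2 (RPN5, RPT5, RPT2 and RPN8) and 5 without P43L replicate 3. Each is below the 9 called with all libraries, where 25.2% of all genes were lower. Of all genes, 22% were lower and 24.6% higher when P43L replicate 2 was left out. Without P43L replicate 2, RPN4 was 0.33 ± 0.09 above rad6Δ (edgeR adjusted p = 0.00611). The fold changes of P47T and E49K over rad6Δ ran with coding length among the members (Spearman −0.498 and −0.459, against −0.180 and −0.097 over 5532 genes), and 21 and 22 members were lower with the length correction. The part of length was not tested. With library totals alone, all genes in P47T against rad6Δ split into 1056 higher and 1816 lower, against 1459 and 1484 with TMM, and the members into none higher and 19 lower.

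Across the 5 comparisons with WT, 27 of 34 members (79.4%) were called at least once, as were 75.6% of all genes tested. The members never called were PRE6, PRE10, PUP1, PRE2, RPN2, RPN10 and RPN3. PRE8 was called higher in rad6Δ, P43L, P47T and E49K, the 4 strains with an altered or absent Rad6, in comparisons that share the WT libraries. In bre1Δ it had 113, 88.7 and 132 CPM, which spans the WT values.

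Proteins that build or serve the proteasome were measured alongside. The counts of these lists stand beside all-gene shares against WT of 24.8% higher and 24.8% lower in rad6Δ, 22.3% and 22.1% in bre1Δ, 5.95% and 6.18% in P43L, 14.2% and 13.7% in P47T, and 15.2% and 16.1% in E49K. Of 10 assembly chaperone genes, none of which carries the full element, 1 rose and 5 fell in rad6Δ (24.8% and 24.8% of all genes), and none rose and 5 fell in bre1Δ (22.3% and 22.1%), against WT. TMA17, a chaperone of the base, had 78.4, 80.3 and 71.5 CPM in rad6Δ and 96.1, 77.8 and 63.4 CPM in bre1Δ, against 148, 136 and 143 CPM in WT. It fell in both (−0.89 ± 0.11 and −0.84 ± 0.11, edgeR adjusted p = 1.03e-06 and 5.05e-06). It also fell in P47T (−0.73 ± 0.11) and E49K (−0.67 ± 0.11), and no library of these 4 strains reached the WT range. RPN14, another base chaperone, fell in rad6Δ, bre1Δ, P43L and E49K, with log2 fold changes of −0.49, −0.68, −0.46 and −0.42. UMP1, which helps the core mature, rose in rad6Δ at 158, 158 and 161 CPM, against 128, 126 and 118 CPM in WT (0.36 ± 0.08, edgeR adjusted p = 0.000618). It fell in P47T (−0.24 ± 0.08). PBA1, a chaperone of the alpha ring, fell in rad6Δ (−0.29 ± 0.08), bre1Δ (−0.46 ± 0.08) and P47T (−0.22 ± 0.08), and NAS6, a base chaperone, rose in P47T (0.27 ± 0.10). The other counts were none higher and 1 lower in P43L, 1 and 3 in P47T, and none and 2 in E49K.

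Of 6 genes for proteins that bind the proteasome, 1 rose and none fell in rad6Δ, none rose and 3 fell in bre1Δ, 1 rose and 1 fell in P43L, and none rose and 3 fell in both P47T and E49K. BLM10, an alternative cap of the core, rose in rad6Δ (0.29 ± 0.09), and also in P43L without replicate 2 (0.33 ± 0.09, edgeR adjusted p = 0.0146; 0.24 with it, not called). ECM29, which tethers cap and core and carries the full element, fell in bre1Δ (−0.41 ± 0.09) and rose in P43L (0.32 ± 0.09). UBP6, a deubiquitinase of the base, fell in P47T (−0.36 ± 0.07) and E49K (−0.23 ± 0.07).

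Of 8 genes for ubiquitin shuttles and the Cdc48 complex, which bring substrates to the proteasome, none rose in any mutant, while 3 fell in rad6Δ, 4 in bre1Δ, 1 in P43L and 5 in each of P47T and E49K. Of all genes, 24.8%, 22.1%, 6.18%, 13.7% and 16.1% fell in these 5 strains. The shuttle RAD23 fell in rad6Δ (−0.31 ± 0.07), bre1Δ (−0.43 ± 0.07), P43L (−0.23 ± 0.07), P47T (−0.31 ± 0.07) and E49K (−0.35 ± 0.07). Without P43L replicate 2 its call in P43L was lost (−0.19, edgeR adjusted p = 0.0877). The shuttle DDI1 fell in rad6Δ, bre1Δ, P47T and E49K, and the Cdc48 cofactor gene UFD1 fell in the same 4 strains, by 0.20 ± 0.07 (rad6Δ), 0.67 ± 0.07 (bre1Δ), 0.20 ± 0.07 (P47T) and 0.20 ± 0.07 (E49K) on the log2 scale. Of 18 genes for ubiquitin and its enzymes, rad6Δ had 7 higher and 6 lower, bre1Δ none and 3, P43L 3 and 1, P47T none and 3, and E49K none and 1, beside the all-gene shares given with the assembly chaperones. Without P43L replicate 2, P43L had 9 higher and 1 lower, where 10.7% of all genes rose and 8.93% fell. UBA1, the activating enzyme, rose in rad6Δ and in P43L, in each by 0.32 ± 0.08 on the log2 scale. UBI4, the stress-induced polyubiquitin gene, rose in P43L (0.31 ± 0.09) and fell in P47T (−0.28 ± 0.09).

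Among 6 genes for regulators and turnover of Rpn4, 2 rose and 1 fell in rad6Δ, none rose and 2 fell in bre1Δ, P47T and E49K, and none was called in P43L. UBR2 is also in the list of ubiquitin and its enzymes, and is counted in both lists. MUB1, the partner of the ligase that marks Rpn4, had 106, 113 and 110 CPM in rad6Δ and 99.2, 104 and 91.7 CPM in E49K, against 143, 149 and 149 CPM in WT. It fell in rad6Δ (−0.42 ± 0.09), bre1Δ (−0.55 ± 0.10), P47T (−0.30 ± 0.09) and E49K (−0.58 ± 0.09), and in P43L it had −0.04 ± 0.09. UBR2, the ligase itself, rose in rad6Δ to a mean of 71.9 CPM, against 54.7 CPM in WT (0.40 ± 0.13, edgeR adjusted p = 0.0125), and was not called in the other mutants (−0.13 to 0.24), except in P43L without replicate 2 (0.38 ± 0.12, adjusted p = 0.0322). PDR1, an activator of RPN4 known from drug resistance, rose in rad6Δ (0.39 ± 0.08), and also in P43L without replicate 2 (0.27 ± 0.09, edgeR adjusted p = 0.0296; 0.22 with it, not called). YAP1, the oxidative stress factor that also acts on RPN4, fell in bre1Δ (−0.32 ± 0.07), P47T (−0.28 ± 0.07) and E49K (−0.29 ± 0.07), and had 0.09 ± 0.07 in rad6Δ. PDR3 and HSF1, the other 2 known regulators of RPN4, were called in none of the 5 comparisons, with values between −0.16 and 0.20. Levels of Rpn4 protein, of the proteasome or of its activity were not measured in these libraries.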

How the data were processed

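Poly(A)-selected RNA of 6 strains, 3 cultures each, was read as single 50-base reads from a stranded kit, per the labels' protocols. The authors deposited raw counts, whole reads per gene and library. The submitters' processing notes name cutadapt 1.16, STAR 2.6.1b, Subread featureCounts 1.6.3 and DESeq2 1.20, with builds sacCer3 and R64; the settings for strand and multimapping were not given in the sources used here. The deposited rlog table was not used, and 3 lines without values were not analysed here.

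The counts were tested with edgeR 4.0.16 (R 4.3.3): filterByExpr, TMM factors (0.896 to 1.07), and 1 robust quasi-likelihood fit of 18 libraries, with 12 residual degrees of freedom and a biological coefficient of variation of 8.55%. Each of 9 comparisons used glmQLFTest, two-sided, with Benjamini-Hochberg adjustment over 5630 genes at 0.05. The standard error is the log2 fold change divided by the root of F. CPM means read counts scaled to library size with the TMM factor applied. The script was tested on simulated data. No member overlaps another annotated gene, but antisense transcripts cannot be told apart if counting ignored strand.

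Members, gene lists and comparisons were chosen with earlier results of these data known. Values by library are given for RPN4 and, against WT, for up to 3 called members of lowest adjusted p in each direction. The highest and lowest member values are also named, as are up to 3 called genes of each other list, and UBR2, MUB1, PDR1, PDR3, YAP1, HSF1, UMP1 and UBI4 whatever their values. Values by library of RPN5 against rad6Δ, and of PRE8, RPT1, TMA17, MUB1 and UMP1 outside that rule, were added after their values were seen. Alternatives were library totals alone, RLE factors, DESeq2 1.42.0, no filter, a replicate block, a fit of the 2 strains alone and each library left out. Corrections for coding length and GC content were added after seeing the data. Promoter windows came from the R64 genome of RefSeq.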

Additional observations from a re-analysis of the deposited data

How the results depend on the processing

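Member counts were within 1.5 times the reported count in 217 of 252 alternatives. Library totals alone gave 21 lower in bre1Δ, 0 higher and 13 lower in P47T against WT, 1 higher in P43L against rad6Δ, and 0 higher in P47T against rad6Δ, where RPN4 was no longer called (0.16). They also turned RPN4 in P47T against WT to −0.11. DESeq2 gave 4 higher in P43L against WT. The length correction gave 6 higher in P43L against WT, 9 lower in P47T, 2 higher in E49K and 1 higher in P47T against rad6Δ, and turned RPN4 in P47T against WT to −0.009. The GC correction gave 1 higher and 7 lower in P47T against WT. The fit of the 2 strains alone gave 5 lower in rad6Δ, 1 lower in P43L against WT, 11 higher in rad6Δ against bre1Δ and 1 higher in E49K against rad6Δ, that 1 being RPN4 (0.19, adjusted p = 0.0239). The cause of these shifts was not tested. Both corrections were chosen after seeing the data.

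Leaving out single libraries gave 1 to 3 lower in rad6Δ against WT, 0 to 4 higher and 0 to 1 lower in P43L, 0 to 1 higher in P47T, 12 to 20 higher in rad6Δ against bre1Δ, 3 to 7 lower in P43L against rad6Δ and 1 to 2 higher in P47T against rad6Δ. RPN4 ranged between −0.31 and −0.19 in rad6Δ against WT, between −0.078 and 0.057 in P47T against WT (−0.078 without P47T replicate 3 and −0.051 without WT replicate 1), and between 0.17 and 0.30 in P47T against rad6Δ. Replicate numbers did not pair the libraries: 5, 7 and 2 of 15 pairs with the same number correlated above 0.1, and 3 of 18 libraries correlated best with their own number. With a replicate block 13 members rose and 2 fell in rad6Δ, 11 fell in bre1Δ, and 17 rose in rad6Δ against bre1Δ.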
